A study of Mus musculus with 9 samples.

Results

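Malat1, Neat1 and Miat are long noncoding RNAs that are mostly kept in the nucleus. They were taken by symbol from a table of total RNA sequencing of mouse oocytes, and all 3 had a row among its 23235 genes. The groups, all from oocytes of day 21, were MTR4-null nuclei (2 libraries listed), WT nuclei (3), MTR4-null cytoplasms (2) and WT cytoplasms (2). Nuclei were parted from cytoplasms by micromanipulation, and each library pooled 10 nuclei or 10 cytoplasms. The labels give the genotypes as WT and Mtr4-null. The allele, what drove its deletion and the mouse strain are not named in the sources at hand. MTR4 is the RNA helicase that unwinds nuclear transcripts and hands them to the RNA exosome for trimming or decay.

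In somatic cells, Malat1 gathers at nuclear speckles, the stores of splicing factors. Neat1 is the RNA scaffold on which paraspeckles, a second kind of nuclear body, are built, and it is made as a short polyadenylated and a long form. Miat, also called Gomafu, is known from neurons and retina, where it stays in nuclear dots and binds splicing regulators. Malat1 and the long Neat1 end without a poly(A) tail: RNase P cuts beneath a tRNA-like fold, and U-rich stretches fold back on an A-rich end and shield it from decay. Libraries of total RNA, as used here, hold such RNAs as well as polyadenylated ones.

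The 3′ ends are shown because they are what Malat1 and the long Neat1 share and what sets them apart from Miat. The RNA letters are written as DNA, 5′ to 3′, from the longest Malat1 and Neat1 transcripts of GENCODE M21, which have 1 exon each on the minus strand of chromosome 19 (GRCm38, a later build than the mm9 named for the table). That of Malat1 is 6983 nt long and that of Neat1 20771 nt. The 91 bases up to the RNase P cut lie at chr19:5795982-5796072 for Malat1 and at chr19:5824708-5824798 for Neat1, and capitals mark the run of 11 bases with which both end. The 58 bases after the Malat1 cut, at chr19:5795924-5795981, are those of mascRNA, the small tRNA-like RNA released there, named as such by RefSeq (GRCm38.p6), and capitals mark its match to the tRNA B box, an inner promoter of tRNA genes.
Malat1 before the cut: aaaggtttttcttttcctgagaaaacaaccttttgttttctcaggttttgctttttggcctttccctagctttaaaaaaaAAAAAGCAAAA
Neat1 before the cut: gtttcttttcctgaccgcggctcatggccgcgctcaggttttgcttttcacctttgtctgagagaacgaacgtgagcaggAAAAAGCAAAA
mascRNA: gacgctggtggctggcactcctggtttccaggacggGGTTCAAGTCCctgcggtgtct

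The shared letters AAAAAGCAAAA, searched on the sense strand, occur once in each of those transcripts. They occur in none of the 6 annotated Miat transcripts, and 0.456% of 135671 mouse transcripts of at least 150 nt hold them anywhere. The letters end the Neat1 transcript, while the annotated Malat1 transcript runs on for 292 bases past them. In the last 150 bases, which leaves Malat1 out, 0.0575% of transcripts hold them. A short Neat1 transcript of 3004 nt does not hold them either. The table has 1 row per symbol, so the short and long Neat1 cannot be told apart in it, and mascRNA was not analysed here.

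The values are FPKM, that is fragments per kilobase of transcript and per 1000000 mapped fragments. The table has 4 columns, 1 per group, so each value is the authors' mean of a group, with no SD and no replicate test. Differences were taken on log2(FPKM + 1), and a gene was counted as apart from 2-fold on. Filtering at 1 FPKM in at least 1 column kept 14270 genes, among them Malat1 and Neat1 but not Miat. Mtr4 itself, listed as Skiv2l2, stood at 2.91 FPKM in MTR4-null nuclei against 16.2 in WT nuclei, and at 2.51 FPKM in MTR4-null cytoplasms against 21.6 in WT cytoplasms. The FPKM summed to between 416740 and 880989 per column, and small RNA genes made up 53.4%, 57.7%, 39.0% and 4.09% of the sums of MTR4-null nuclei, WT nuclei, MTR4-null cytoplasms and WT cytoplasms.

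The 3 RNAs differed widely in level. Malat1 was at 173 FPKM in MTR4-null nuclei, 181 in WT nuclei, 69.6 in MTR4-null cytoplasms and 8.63 in WT cytoplasms. It thus ranked 376 and 299 of all genes in MTR4-null and WT nuclei, and 690 and 6544 in MTR4-null and WT cytoplasms. With its 6983 nt, these levels correspond to 1205, 1267, 486 and 60.3 fragments per 1000000 mapped fragments in the same order.

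Neat1 was low throughout. It was at 0.588 FPKM in MTR4-null nuclei, 3.82 in WT nuclei, 0.726 in MTR4-null cytoplasms and 0.932 in WT cytoplasms, and WT nuclei were the only group above 1 FPKM. The level of Malat1 was 293 times that of Neat1 in MTR4-null nuclei and 47.5 times in WT nuclei, and 95.9 times in MTR4-null and 9.26 times in WT cytoplasms.

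Miat was near the limit of the table, at 0.12 FPKM in MTR4-null nuclei, 0.688 in WT nuclei, 0.0498 in MTR4-null cytoplasms and listed at 0 in WT cytoplasms. On its longest annotated transcript, of 9163 nt, 0.0498 FPKM would be 0.456 fragments per 1000000 mapped fragments. The order of the levels within a group, Malat1 over Neat1 over Miat, held in all 4 columns.

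**Figure D1:**
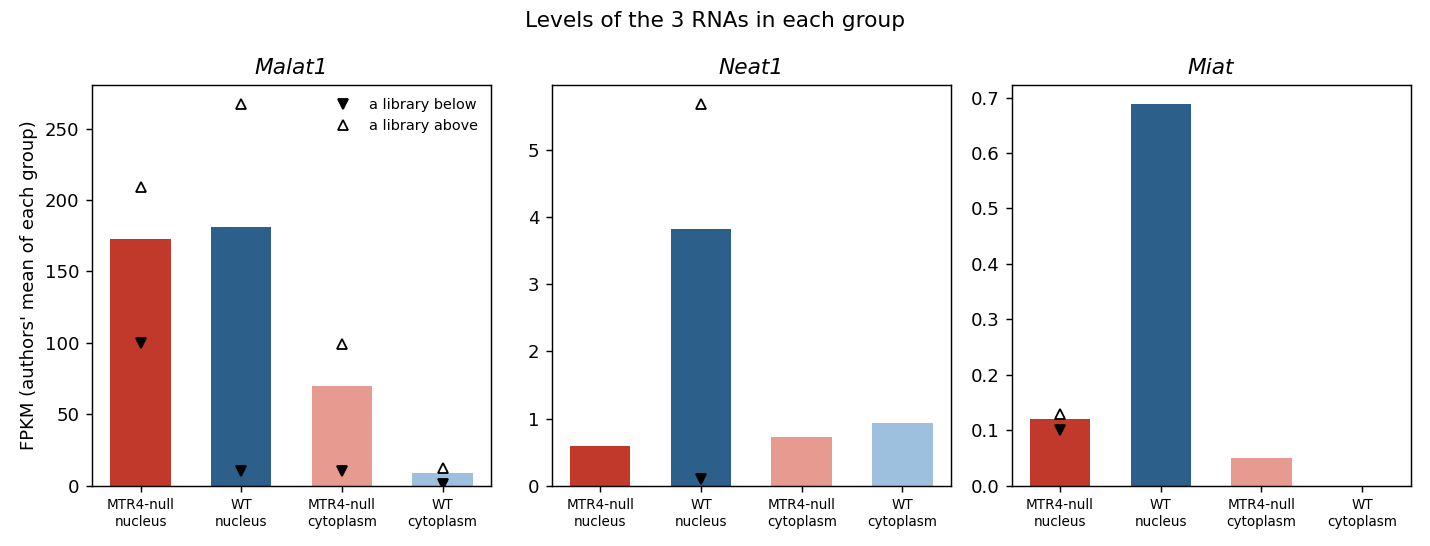
Mean FPKM of Malat1, Neat1 and Miat (vertical axes, linear, a scale for each RNA) in MTR4-null nuclei, WT nuclei, MTR4-null cytoplasms and WT cytoplasms. Filled and open triangles mark limits read from the digits of a mean. At least 1 value behind the mean (called a library in the key) lay below the filled one and at least 1 above the open one. For Malat1 in WT nuclei these limits are 10 and 267 FPKM.

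Although single libraries were not analysed here, the digits of the means limit how far they lay apart. Multiplied by 3, 99.8% to 99.9% of the values from 10 to 100 FPKM ended within 6 decimals, against 32.6% to 34.1% as deposited, as averages of 3 numbers would. The labels list 3 libraries for WT nuclei only, so what the third value of the other groups was is uncertain. Where each value was written with 6 significant digits, as Cufflinks writes FPKM, the decimals of 3 times the mean show the power of 10 of the lowest value above 0. This reading was added after the data were seen, and its limits are rounded to 3 digits. These limits hold only if each library gave 1 such value per gene. A value summed from several entries would let its smallest entry set the digits.

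Read this way, the Malat1 values behind the mean of WT nuclei were far from uniform. The mean of 181 FPKM included a value below 10 and hence another above 267, at least 26.7-fold apart. Of the 681 genes at 100 to 1000 FPKM in WT nuclei, 13 (1.91%) had as many decimals, so this was rare there. Whether the decimals came from a spread of libraries or from summed entries was not tested. In MTR4-null nuclei the mean of 173 FPKM included a value below 100 and another above 209. Of the 784 genes of that range there, 35.6% had at least as many decimals.

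In MTR4-null cytoplasms the Malat1 mean of 69.6 FPKM included a value below 10 and another above 99.5. This was the usual case in that group, where 89.2% of 5332 genes at 10 to 100 FPKM had a value from a lower power of 10, against 11.7% in WT cytoplasms, 24.8% in MTR4-null nuclei and 23.3% in WT nuclei. Whether a library of the MTR4-null cytoplasms was scaled differently from the others is not known, and the mean and the overlap of Malat1 there depend on it. The Malat1 mean of 8.63 FPKM in WT cytoplasms included a value below 1 and another above 12.5. Of the 4873 genes at 1 to 10 FPKM there, 17.6% had at least as many decimals.

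**Figure D2:**
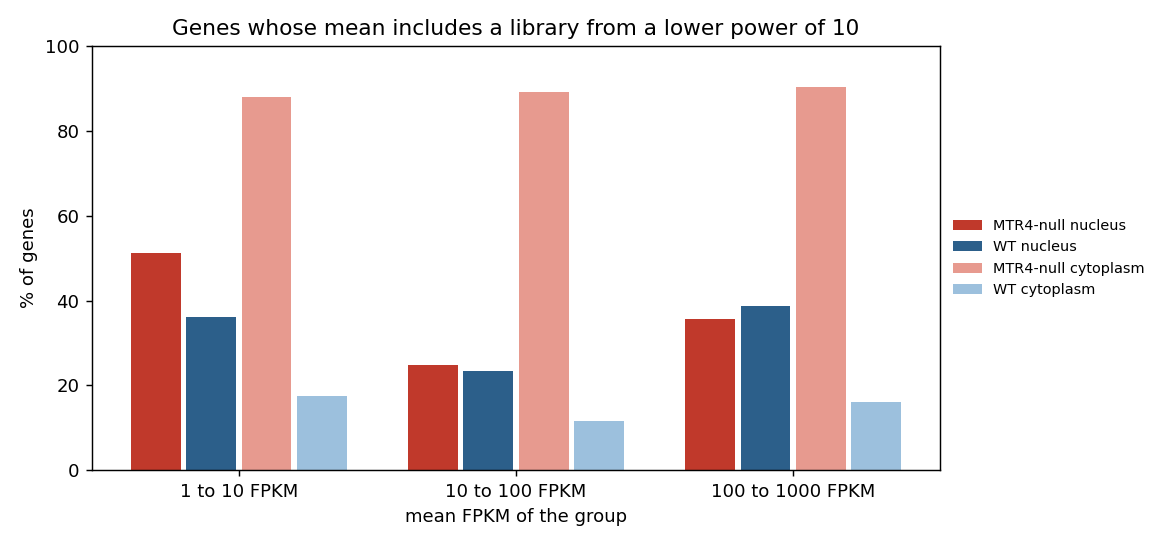
Share of genes (vertical axis, %) for which 3 times the mean had more decimals than 6-digit values of its own power of 10 would give, for 3 ranges of mean FPKM in the 4 groups. MTR4-null cytoplasms stand at 88.0% to 90.4% in the 3 ranges, and WT cytoplasms at 11.7% to 17.6%.

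For Neat1, the WT nuclear mean of 3.82 FPKM included a value below 0.1 and another above 5.68. Of the 5913 genes at 1 to 10 FPKM in WT nuclei, 8.49% had as many decimals. The Neat1 means of the other groups, all below 1 FPKM, gave no such limit. For Miat, the MTR4-null nuclear mean of 0.12 FPKM included a value below 0.1 and another above 0.13.

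The first question is how each RNA differed between nuclei without and with MTR4. Malat1 stood at 173 FPKM in MTR4-null nuclei against 181 in WT nuclei, or 95.1% of WT, a log2 difference of -0.07. Neat1 stood at 0.588 FPKM in MTR4-null nuclei against 3.82 in WT nuclei, or 15.4%, a log2 difference of -1.60. Miat stood at 0.12 FPKM in MTR4-null nuclei against 0.688 in WT nuclei, a log2 difference of -0.59. Each difference stayed negative after each scaling tried, but 39.1% of the genes kept were as low as Malat1 or lower. The median log2 difference of the genes kept was 0.21 as deposited. It was 0.008 after centring by the median log ratio, -0.05 after quantile normalization and 0.05 after rescaling to the FPKM outside small RNA genes.

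Neat1 passed the filter only through its WT nuclear mean, so a lower value in MTR4-null nuclei was built into its being kept, and no count of members is read here. Malat1 was less than 2-fold apart. Over the genes kept, 36.2% were apart, 12.3% lower and 23.9% higher, and centring by the median log ratio made this 16.3% lower and 19.1% higher. Quantile normalization made it 17.6% lower and 16.9% higher. A difference as low as that of Neat1 or lower was found for 4.67% of the genes kept. Under the limits from the digits, values behind the 2 means overlapped for Neat1, since a WT nucleus value lay below 0.1 and at least 1 MTR4-null nucleus value was 0.588 FPKM or more. They also overlapped for Malat1, with a WT nucleus value below 10 and an MTR4-null one above 209. Overlap could be shown in this way for 9.64% of the 1753 genes that were lower in MTR4-null nuclei.

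In the cytoplasm, Malat1 stood at 69.6 FPKM in MTR4-null against 8.63 in WT oocytes, a ratio of 8.07 and a log2 difference of 2.87. Neat1 stood at 0.726 FPKM in MTR4-null against 0.932 in WT cytoplasms, a log2 difference of -0.16, which turned to 0.36 with centring and to 0.11 with rescaling to the FPKM outside small RNA genes. Miat stood at 0.0498 FPKM in MTR4-null cytoplasms and was listed at 0 in WT cytoplasms. Malat1 was at least 2-fold higher and Neat1 was not apart, while 36.3% of the genes kept were apart, 15.0% higher and 21.4% lower. Centring made this 24.7% higher and 6.94% lower, and quantile normalization 15.5% higher and 15.2% lower. Only 2.02% of the genes kept were as far or farther above WT than Malat1, and its difference ran from 2.87 to 3.45 over the alternatives.

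The values behind the means overlapped for Malat1 under the limits from the digits: an MTR4-null cytoplasm value lay below 10 FPKM and a WT cytoplasm value above 12.5. The labels list 2 libraries for each of these groups, so whether each such value is a library of its group is uncertain. Among the 2135 genes at least 2-fold higher in MTR4-null cytoplasms, 25.3% showed such an overlap. In pools of 10 cytoplasms, more oocytes with the RNA and more RNA per oocyte cannot be told apart. Rpph1, the RNA of nuclear RNase P, stood on the same side as Malat1 here, at 8822 FPKM in MTR4-null against 156 in WT cytoplasms. So did the share of small RNA genes given above. Long noncoding RNAs of the list below with a nuclear excess of 2-fold or more in WT oocytes differed among themselves. Their log2 differences between MTR4-null and WT cytoplasms were 3.94 for Snhg3, 1.46 for Kcnq1ot1, 1.29 for Nespas, 0.78 for Meg3 and 0.67 for Snhg1. They were 0.07 for Snhg12, 0.04 for Airn and -0.33 for Rian. Whether nuclear RNA carried over in the separation had a part in the Malat1 result was not tested.

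**Figure D3:**
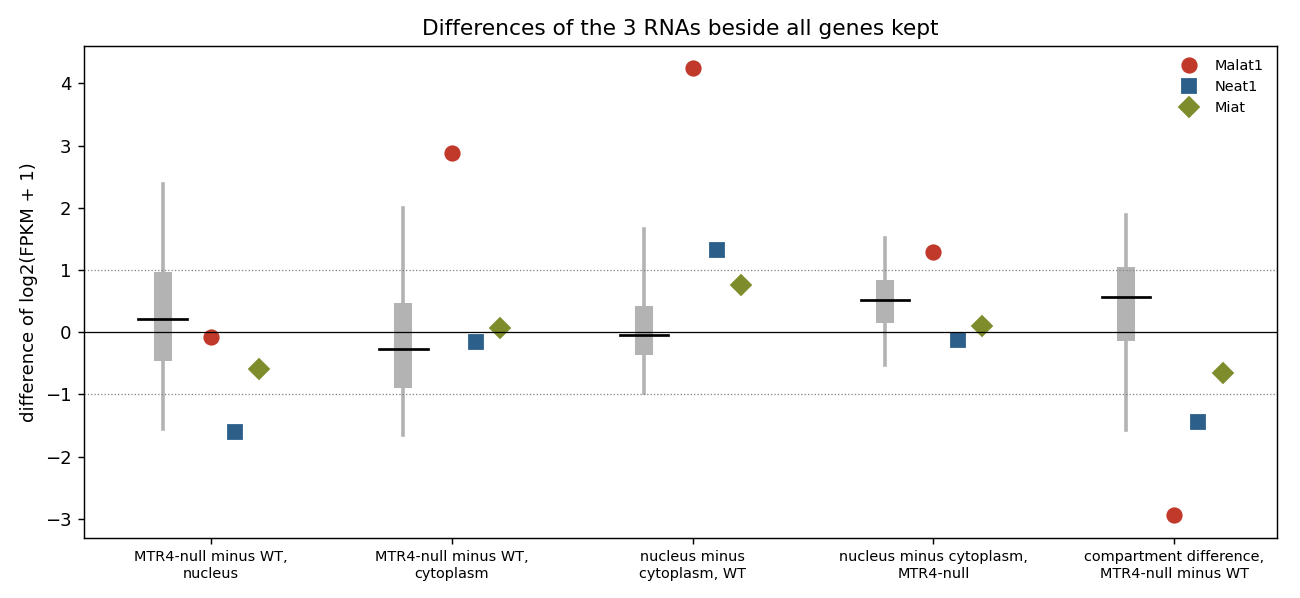
Differences of log2(FPKM + 1) (vertical axis) of Malat1, Neat1 and Miat in 5 comparisons, beside the genes kept (grey box from the 25th to the 75th percentile, thin line from the 5th to the 95th, black bar the median); dotted lines mark 2-fold. Malat1 lies at 2.87 in the cytoplasmic genotype comparison and at -2.95 for the compartment difference, Neat1 at -1.60 in the nuclear genotype comparison.

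The next question is how nuclear each RNA was. In WT oocytes Malat1 stood at 181 FPKM in nuclei against 8.63 in cytoplasms, a ratio of 21 and a log2 difference of 4.24, and 0.771% of the genes kept were as far or farther on the nuclear side. Neat1 stood at 3.82 FPKM in nuclei against 0.932 in cytoplasms, a ratio of 4.1 and a log2 difference of 1.32, with 7.81% of genes as far. Miat was at 0.688 FPKM in nuclei and listed at 0 in cytoplasms. Malat1 was thus at least 2-fold higher in WT nuclei, as was Neat1, whose being kept through that column favours this direction. Of the genes kept, 12.4% were higher and 4.71% lower. This was 14.8% higher and 3.51% lower after centring, and 9.16% higher and 7.83% lower after quantile normalization. Quantile normalization put Neat1 just under the limit, at 0.97.

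Under the same limits, the values behind the WT means of the 2 compartments overlapped for both RNAs. A WT nucleus value of Malat1 lay below 10 FPKM and a WT cytoplasm value above 12.5, and a WT nucleus value of Neat1 lay below 0.1 while at least 1 WT cytoplasm value was 0.932 or more. Overlap could be shown for 10.4% of the 1775 genes that were higher in WT nuclei.

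In MTR4-null oocytes the nuclear excess of these means was smaller. Malat1 stood at 173 FPKM in nuclei against 69.6 in cytoplasms, a ratio of 2.48 and a log2 difference of 1.30. Neat1 stood at 0.588 FPKM in nuclei against 0.726 in cytoplasms, a log2 difference of -0.12, and Miat at 0.12 against 0.0498. Malat1 was at least 2-fold higher in MTR4-null nuclei, while 18.9% of the genes kept were apart, 2428 of them higher and 262 (1.84%) lower. The median of the genes kept was itself 0.52. Centring made the shares 4.23% higher and 6.69% lower, and quantile normalization 5.38% higher and 4.98% lower. After centring, quantile normalization or rescaling, Malat1 was no longer 2-fold apart, at 0.70, 0.61 and 0.67.

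Set against each other, the compartment differences of MTR4-null and WT oocytes were 1.30 and 4.24 for Malat1, -2.95 apart. They were -0.12 and 1.32 for Neat1, -1.44 apart, and 0.09 and 0.76 for Miat, -0.66 apart. Malat1 lay at least 2-fold farther toward the cytoplasm in MTR4-null oocytes, as did 10.7% of the genes kept, with 27.0% in the other direction. Neat1 did so too, but the WT nuclear mean through which it was kept by itself pushes it that way. For the genes kept, centring made this 22.2% toward the cytoplasm and 6.84% in the other direction, and quantile normalization 13.1% and 12.6%. A difference as low as that of Malat1 was found for 1.11% of the genes kept, and one as low as that of Neat1 for 5.78%. The columns behind this differed between the members. For Malat1 the cytoplasmic mean was higher in MTR4-null oocytes and the nuclear means were close, and for Neat1 the nuclear mean was lower and the cytoplasmic means were close. This comparison uses the same 4 columns as those above and adds no new measurement.

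Other long noncoding RNAs were set beside them from a list of 30, of which 22 had a row and 17 were kept. In WT oocytes 8 of the 17 were at least 2-fold higher in nuclei and 0 lower, with a median of 0.96 against -0.04 for all genes kept. Of all genes kept, 12.4% were higher and 4.71% lower. This was 14.8% and 3.51% after centring, and 9.16% and 7.83% after quantile normalization. Some of the 17 reached 1 FPKM only in nuclei, and their being kept favours this direction. Malat1 had the largest of the 19 compartment differences in WT, members included, followed by Kcnq1ot1, which silences imprinted genes beside it, at 3.94. Neat1 came eighth, between Nespas at 1.44 and Snhg1, a host of small nucleolar RNAs, at 1.31.

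In MTR4-null oocytes Malat1 held place 5 of 19 and Neat1 place 17. Kcnq1ot1 was at 6.27 FPKM in MTR4-null nuclei against 16.05 in WT nuclei, and at 2.04 in MTR4-null cytoplasms against 0.11 in WT cytoplasms, so its compartment difference was 1.26 in MTR4-null and 3.94 in WT oocytes. Airn, a further imprinted RNA, had 1.67 in MTR4-null and 1.73 in WT oocytes. In all, 5 of the 17 lay at least 2-fold farther toward the cytoplasm in MTR4-null oocytes and 1, Tug1, the other way. Of all genes kept, 10.7% lay toward the cytoplasm and 27.0% the other way. This was 22.2% and 6.84% after centring, and 13.1% and 12.6% after quantile normalization. The list was not counted after either, so how far it departs from all genes depends on the scaling.

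Between genotypes the list went both ways. In nuclei 6 of 17 were higher in MTR4-null and 2 lower (median -0.02), against 23.9% higher and 12.3% lower of all genes kept (median 0.21). In cytoplasms 6 of 17 were higher in MTR4-null and 1 lower (median 0.38), against 15.0% higher and 21.4% lower of all genes kept (median -0.26). Snhg3 was at 25.3 FPKM in MTR4-null nuclei against 2.61 in WT nuclei, and at 25.6 in MTR4-null cytoplasms against 0.728 in WT cytoplasms. 2900097C17Rik was at 26.3 FPKM in MTR4-null nuclei against 4.90 in WT nuclei. Neat1, lower in MTR4-null nuclei, thus stood on the side of Kcnq1ot1 and Meg3.

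**Figure D4:**
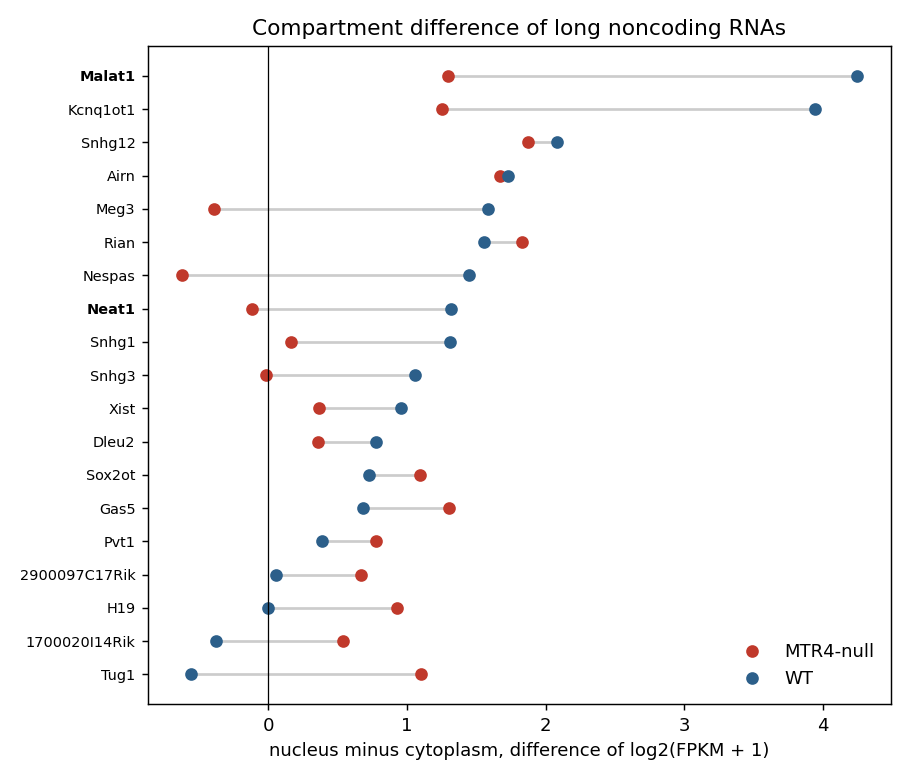
Nucleus minus cytoplasm difference of log2(FPKM + 1) (horizontal axis) of 19 long noncoding RNAs in MTR4-null (red) and WT (blue) oocytes, ordered by the WT value; names of members are bold. Malat1 lies at 1.30 in MTR4-null and 4.24 in WT oocytes, and Neat1 at -0.12 and 1.32.

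Genes whose pattern over the 4 columns was most like that of each member were found by the distance between log2(FPKM + 1) values centred on each gene's mean, among other genes at 5 FPKM or more (9037 for Malat1, 9038 for Neat1 and for Miat), without gene models and small RNAs. For Malat1, 2 genes lay within a distance of 1. The nearest was Cmah, at 22.2 FPKM in MTR4-null nuclei, 24.9 in WT nuclei, 5.62 in MTR4-null cytoplasms and 0.555 in WT cytoplasms, at a distance of 0.58. It was followed by Dcdc2c at 0.89, Mpv17 at 1.06 and Aoc2 at 1.08. For Neat1, 676 genes lay within 1, a count not comparable with that of Malat1, since values near 1 FPKM vary less on this scale. Ralgapa2 at 0.18, Olfr667 at 0.22, Fam82b at 0.24 and Stxbp4 at 0.24 were nearest. For Miat, whose values near 0 hardly vary on this scale, 3711 genes lay as near, among them Zcchc6, Dnajb14, Rasal2 and Nme1. These distances rest on 4 columns.

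Malat1 and Neat1 are neighbours on chromosome 19 in the RefSeq annotation of GRCm38.p6, with no other gene of the table between them. On the Neat1 side lies Frmd8, at 27.8 FPKM in MTR4-null nuclei against 15.1 in WT nuclei and at 15.3 in MTR4-null cytoplasms against 16.2 in WT cytoplasms. Its cytoplasmic log2 difference was -0.08, against 2.87 for Malat1. The nearest gene of the table beside Miat, on chromosome 5, was 1700028D13Rik, at 1.93 FPKM in MTR4-null nuclei against 5.19 in WT nuclei, and the crystallin genes Cryba4 and Crybb1 on its other side were listed at 0 in all columns.

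The genes of proteins that form paraspeckles and speckles were set beside the RNAs. The counts of these and the next lists are to be read against the same shares of all genes kept. These were 23.9% higher and 12.3% lower in MTR4-null nuclei, and 15.0% higher and 21.4% lower in MTR4-null cytoplasms. The cytoplasmic shares were 24.7% and 6.94% after centring, and 15.5% and 15.2% after quantile normalization. In MTR4-null nuclei 4 of 22 paraspeckle protein genes were higher by 2-fold or more and 0 lower (median 0.33), a share of higher genes no greater than that of all genes kept. The paraspeckle core genes Nono and Sfpq were at 80.6 and 77.7 FPKM in MTR4-null nuclei against 104 and 115 in WT nuclei, and Pspc1 at 17.4 in MTR4-null nuclei against 12.0 in WT nuclei. In cytoplasms 3 of the 22 were higher in MTR4-null and 3 lower (median -0.23). Of 22 nuclear speckle genes, 2 were higher and 1 lower in MTR4-null nuclei (median 0.36), and 2 were higher and 6 lower in MTR4-null cytoplasms (median -0.46). Srrm2, a core protein of speckles, was at 65.0 FPKM in MTR4-null nuclei against 64.7 in WT nuclei.

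Of 14 genes that act on the 3′ ends of Malat1 and Neat1, 2 were higher and 1 lower in MTR4-null nuclei (median 0.06), and 2 were higher and 6 lower in MTR4-null cytoplasms (median -0.36). Elac2, the RNase Z that trims mascRNA, was at 39.1 FPKM in MTR4-null nuclei against 37.7 in WT nuclei. Mettl16, whose human protein binds the MALAT1 triple helix, was at 5.96 FPKM in MTR4-null nuclei against 16.6 in WT nuclei. Rpph1 was at 12556 FPKM in MTR4-null nuclei against 11847 in WT nuclei. Of 5 kept genes for proteins that bind Miat or belong to their families, 0 were higher and 1 lower in MTR4-null nuclei (median -0.37), and 0 were higher and 2 lower in MTR4-null cytoplasms (median -0.85). Sf1, a branch point binding protein known to bind Miat, was at 17.2 FPKM in MTR4-null nuclei against 38.4 in WT nuclei. Of 11 genes for MTR4 and the adaptors that guide RNAs to it and the exosome, 3 were higher and 1, Mtr4 itself, lower in MTR4-null nuclei (median 0.09), and 1 was higher and 3 lower, Mtr4 included, in MTR4-null cytoplasms (median -0.84).

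Malat1 and Neat1 are abundant in somatic cells, so markers of other ovarian cells were read in the same columns. The 18 oocyte markers summed to 14907 FPKM in MTR4-null nuclei, 11051 in WT nuclei, 8983 in MTR4-null cytoplasms and 13801 in WT cytoplasms. The 20 granulosa cell markers summed to 71.1, 91.9, 51.7 and 68.5 FPKM in the same order, highest in WT nuclei. Amh was the only marker of this list at 0 in WT nuclei, while Inha was at 21.4 FPKM there. Per 1000000 FPKM outside small RNA genes, the granulosa sums were 173, 254, 196 and 171, so that between cytoplasms the direction turned with the scaling. In MTR4-null cytoplasms 0 of 19 kept granulosa markers were at least 2-fold higher and 3 lower, and in MTR4-null nuclei 6 were higher and 4 lower. Cyp11a1, a steroid enzyme among the 4 lower markers, was at 1.47 FPKM in MTR4-null nuclei against 21.3 in WT nuclei. That is the direction of Neat1, while the 6 higher markers went the other way. The 16 markers of theca, stroma, endothelium and blood summed to 29.4, 41.1, 15.8 and 29.1 FPKM in the same order, or 71.7, 114, 59.9 and 72.7 per 1000000 FPKM outside small RNA genes. Of these markers 3, 6, 2 and 2 were listed at 0. Pecam1, an endothelial marker also on other cells, was at 12.3 FPKM in MTR4-null nuclei, 18.9 in WT nuclei, 5.61 in MTR4-null cytoplasms and 20.4 in WT cytoplasms. Lyz2, a myeloid marker, was at 0.963 FPKM in MTR4-null cytoplasms and at 0 in the other columns, and did not pass the filter. Of the 7 markers of this list that were kept, 0 were at least 2-fold higher and 2 lower in MTR4-null cytoplasms. The part of other cells in the Malat1 and Neat1 results was not tested.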

How the data were processed

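Per the labels' protocols, RNA of day 21 oocyte nuclei and cytoplasms was depleted of ribosomal RNA and sequenced as paired reads of 150 bp. The authors deposited 1 table of FPKM with 1 column per group. TopHat2 2.1.1, Cufflinks 2.2.1 and mm9 are named per the submitters' processing notes, without saying how libraries were combined. A last row without a gene name, holding 50% of all values, equals the column sums and was left out. Read depth is unknown, so no interval or floor is given.

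Differences of log2(FPKM + 1) were computed for 5 comparisons with Python 3.11.15 and pandas 2.3.3. Genes at 1 FPKM or more in at least 1 column were kept, and 2-fold was the limit for a call. The planned linear model needed single libraries and was not run. Each mean was multiplied by 3 and its decimals counted. These steps and that reading were checked on simulated data. Genes named beside the members were the 4 of most like pattern, some of the up to 3 annotated neighbours per side (1 is not reported here), and up to 4 of the highest mean level per list. Kcnq1ot1, Airn, Nespas, Meg3, Rian, Snhg12, Sfpq, Pspc1, Mettl16, Sf1, Cyp11a1, Amh and Lyz2 were chosen after their values were seen. The members and lists were chosen with earlier results of these data known.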

Additional observations from a re-analysis of the deposited data

How the results depend on the processing

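No paired analysis was possible because the deposited columns are group means, and leaving out replicates was not run for the same reason. A value was taken as moved past 1.5-fold. Of 75 alternative values of member differences 52 stayed within that, 23 moved, and no difference of at least 2-fold changed sign. The cause of each move was not tested, apart from the pseudocount, which by construction shrinks low values.

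With a pseudocount of 0.1 in place of 1, Neat1 was at -2.51 (MTR4-null against WT, nucleus), 1.93 (nucleus against cytoplasm, WT) and -2.19 (compartment difference, MTR4-null minus WT), and Miat at -1.84, 2.98 and -2.43. With 0.01, Neat1 was at -2.68, 2.02 and -2.32 and Miat at -2.43, 6.13 and -5.01, with 2.58 between cytoplasms and 1.12 between MTR4-null compartments. The genes 2-fold apart between compartments numbered 2690 in MTR4-null and 2447 in WT oocytes, 4281 and 4054 with a pseudocount of 0.1, and 4627 and 4415 with 0.01. The filter at 5 FPKM left 1373 in WT.

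Centring by the median log ratio put the difference between MTR4-null compartments at 0.70 for Malat1, -0.71 for Neat1 and -0.50 for Miat, and the difference between the genotypes' compartment values at -3.67, -2.16 and -1.39. Quantile normalization put Malat1 at 0.61 between MTR4-null compartments, and rescaling without small RNA genes at 0.67, with -3.70 for the difference between the genotypes' compartment values. Genes 2-fold apart between MTR4-null compartments then numbered 1558 with centring, 1479 with quantile normalization and 1548 with rescaling.

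The levels of Neat1 and Miat are too low, and the number of libraries behind each mean too uncertain, for firm statements on either RNA. That number is as uncertain for Malat1, which limits what can be said of it too. Under the limits from the digits, Malat1 values overlapped between MTR4-null and WT cytoplasms and between WT nuclei and WT cytoplasms.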
